A study of Homo sapiens with 9 samples.

Results

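AP-1 is a family of paired transcription factors, each pair built from a JUN protein and a FOS or JUN protein, and its genes belong to the immediate-early genes, which cells switch on within minutes of a growth or stress signal. The set described here holds 10 of these genes. They are the FOS family (FOS, FOSB, FOSL1 and FOSL2), the JUN family (JUN, JUNB and JUND), and the immediate-early genes EGR1, IER2 and IER3. They were chosen by name, with earlier results of these data known. They were matched by symbol to the identifiers in the count files, and all 10 of the 61544 genes listed were found. All 10 passed the filter on low counts that left 18653 genes for testing.

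The cells were H1975, a human lung adenocarcinoma line with a mutant EGFR gene. In each group, siRNA against the 3′UTR of the mRNA for the ER chaperone GRP78 (si78, 24 h) was followed by a plasmid for 48 h. The plasmid was the empty vector, F-78(WT), a tagged wild-type GRP78 (the WT group), or F-78(NLS Mut), the same with a mutated nuclear localization signal (the NLS Mut group), with 3 RNA-Seq libraries each and 17671055 to 27476298 counted reads per library. All groups therefore carried si78, and no untreated cells were among them. The labels do not say whether the 3 libraries came from separate cultures, so p-values measure the spread between these libraries, which may be technical. HSPA5, which encodes GRP78, was at 378 ± 17.1 CPM (counts scaled to library size, mean ± SD, n = 3) in vector, 5664 ± 572 in WT and 4961 ± 195 in NLS Mut, high in the groups labelled with a GRP78 plasmid. The epithelial markers EPCAM, KRT7, KRT8, KRT18, KRT19 and CDH1 summed to 4357 to 5107 CPM per library. The 5 leukocyte markers summed to 0.681 to 3.00 CPM, with CD79A at 0.511 to 2.96 and CD3E, CD68 and LYZ at 0. Reads on more than 1 gene were left out of these counts, so a 0 need not mean that no read fell there. The endothelial markers summed to 5.29 to 8.05 CPM and the fibroblast markers to 6.90 to 11.8, nearly all of it PDGFRB, with DCN at 0.

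JUN, JUNB and JUND pair with each other or with FOS proteins through a leucine zipper, and the pairs bind the AP-1 site or the cAMP response element. FOS proteins cannot pair with themselves. FOSL1 and FOSL2 are longer-lived members of the family in epithelial cancers, whereas FOS, FOSB and EGR1 are brief responders downstream of ERK. EGR1 is a zinc finger activator, IER2 is a small nuclear protein, and IER3 is a stress-response protein linked to survival.

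The promoter sequences of EGR1 and JUND are shown because they held the elements through which such genes are classically induced. RefSeq promoters (GRCh38.p14) were matched for 8 of the 10 genes, and the 250 bases before the annotated start were searched on both strands. The EGR1 window is chr5:138465229-138465478 on the plus strand and the JUND window is chr19:18281623-18281872 on the minus strand. Capitals mark a pair of CArG boxes in EGR1, the element bound by serum response factor, and in JUND 1 cAMP response element followed by a pair of E-boxes.
EGR1: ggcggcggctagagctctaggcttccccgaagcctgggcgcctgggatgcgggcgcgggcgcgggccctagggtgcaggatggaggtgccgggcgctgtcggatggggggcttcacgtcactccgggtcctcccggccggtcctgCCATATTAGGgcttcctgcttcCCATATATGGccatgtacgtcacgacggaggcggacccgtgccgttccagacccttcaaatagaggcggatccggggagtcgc
JUND: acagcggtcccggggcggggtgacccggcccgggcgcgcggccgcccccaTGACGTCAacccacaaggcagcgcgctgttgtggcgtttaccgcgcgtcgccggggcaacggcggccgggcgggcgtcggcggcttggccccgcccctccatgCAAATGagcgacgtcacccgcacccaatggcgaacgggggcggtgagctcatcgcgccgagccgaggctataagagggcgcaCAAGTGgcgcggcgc

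A CArG box lay in 1 of the 8 promoters (EGR1) and in 1.14% of all 27303 promoters. The full cAMP response element TGACGTCA lay in 1 of 8 (JUND) and in 1.77% of all promoters. The E-box CANNTG, a site of basic helix-loop-helix factors and so of the factors that ID2 binds and inhibits, lay in 4 of 8 (FOSB, FOSL2, JUND and IER2) and in 62.2% of all promoters. Its form CACGTG, which CANNTG includes, was in 0 of 8 and in 6.49% of all. The AP-1 site TGACTCA or TGAGTCA was in 0 of 8 against 4.16% of all, and the EGR sites GCGGGGGCG or GCGTGGGCG were in 0 of 8 against 5.30% of all. These are matches of letters in a short window and not binding sites.

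Within the vector cells, the levels spanned a wide range when counts were divided by exonic length and scaled to the library (TPM, mean ± SD, n = 3). JUND was at 442 ± 65.1 TPM and JUNB at 439 ± 56.2, and their libraries overlapped. FOSL1 followed at 202 ± 23.7, JUN at 186 ± 19.9, FOSL2 at 164 ± 0.837 and EGR1 at 152 ± 15.2, each overlapping the next gene in this order. IER2 was at 74.8 ± 9.54 TPM and IER3 at 62.6 ± 3.59, without overlap. FOS was at 11.2 ± 2.6 and FOSB at 0.608 ± 0.00761. FOSB had 145 reads over all 9 libraries, so that no difference of the size seen in the other genes was detectable at this depth.

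The order depends on how reads over 2 genes were counted. Reads on more than 1 gene are left out of the unstranded counts used here. The forward strand held 50.6% to 51.9% of stranded counts, so the libraries were not strand-specific. Summing the counts of both strands therefore credits a read over 2 opposite genes to both. IER2 shares 946 exonic bases with an antisense gene, ENSG00000267598, and its summed strand counts were 5.11 times the unstranded count, which put IER2 at 288 ± 26.3 TPM in vector. The antisense gene itself had 0 unstranded counts in every library. JUNB shares 259 exonic bases with HOOK2, and its ratio was 1.60, which put JUNB at 503 ± 60.5 TPM (433 to 545) and JUND, on the same counts, at 325 ± 46.3 (272 to 358), without overlap. HOOK2 itself had 1024 to 1972 unstranded counts per library, so the JUNB sum can hold reads of HOOK2. The level of JUNB therefore stays unsettled. The ratio was 1.03 for IER3, which overlaps IER3-AS1, and 1.00 for the other 7 genes.

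FOSL1 and FOSL2 made up nearly all FOS-family transcripts. FOSL1 held 53.3% ± 3.29 of the family's TPM in vector (SD, n = 3), 50.1% ± 2.89 in WT and 55.3% ± 1.87 in NLS Mut. FOSL2 held 43.5% ± 2.56, 46.7% ± 2.09 and 42.0% ± 1.47 in the same order. FOS stayed between 2.09% and 4.04% in all libraries. In single libraries the FOSL1 share was 46.8%, 51.6% and 51.9% in WT and 56.1%, 56.6% and 53.2% in NLS Mut, so that these groups did not overlap. In the JUN family, JUN held 17.5% ± 0.548 in vector, 16.6% ± 1.26 in WT and 17.9% ± 0.349 in NLS Mut, and the ranges overlapped. JUNB held 42.5% ± 0.677 in WT, with all 3 libraries (41.8% to 43.1%) above those of vector (40.3% to 41.6%) and NLS Mut (39.4% to 41.1%). With the summed strand counts the JUN share was 12.4% to 13.9% in WT and 14.3% to 14.6% in NLS Mut, without overlap. The JUN share separated from NLS Mut only with these summed counts. The FOSL2 share also separated, at 45.2% to 49.1% in WT and 40.9% to 43.6% in NLS Mut. An exact permutation test gave p = 0.1 for each of these separations of FOSL1, FOSL2, JUNB and JUN shares. That is the smallest p that 3 against 3 libraries allow. Groups without overlap always give this value, so the test adds nothing to the ranges. No rate over other genes was computed for such shares.

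**Figure D1:**
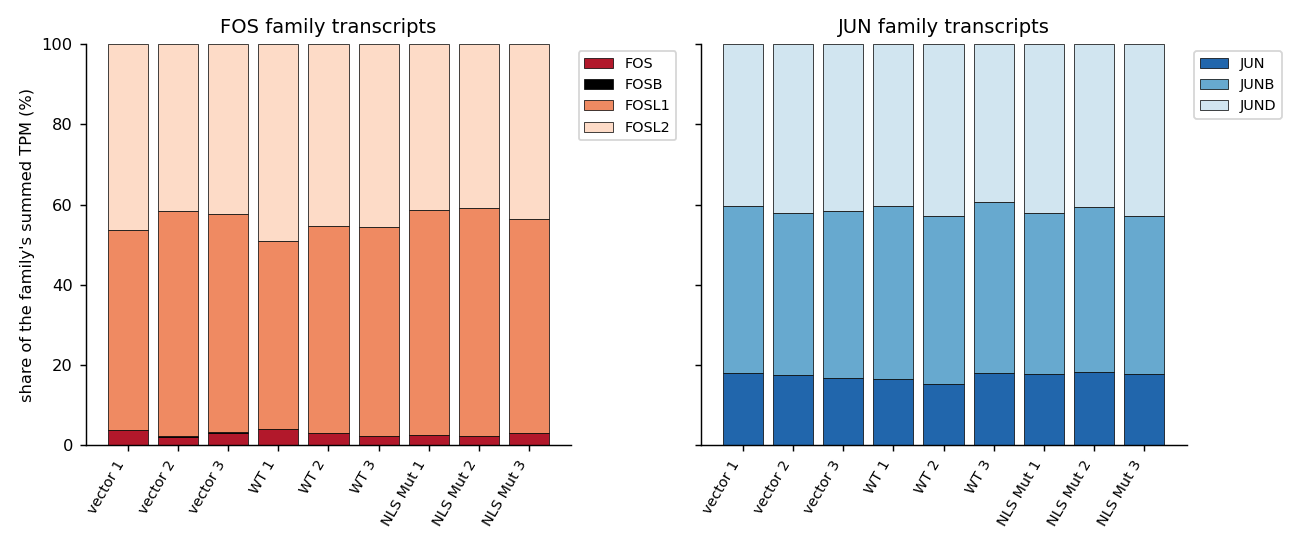
Share of each gene in the summed TPM of the FOS family (left) and the JUN family (right), in percent, in each of the 9 libraries. FOSL1 and FOSL2 fill most of the FOS bars, JUNB and JUND most of the JUN bars, and FOSL1 is 46.8% to 51.9% in WT against 53.2% to 56.6% in NLS Mut.

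To determine how the wild-type GRP78 plasmid bears on these genes, WT was compared with vector. JUN and EGR1 fell, and no gene of the set rose. All 10 log2 fold changes were below 0, with a median of -0.23 against -0.00 over all tested genes. By edgeR's quasi-likelihood test with Benjamini-Hochberg adjustment over 18653 genes, 2 of 10 passed an adjusted p of 0.05, where 0.558% of all genes passed in either direction and 0.343% passed as lower. At an unadjusted p under 0.05 there were 5 of 10 (JUN, EGR1, JUND, FOSL1 and JUNB), against 11.7% of all genes. The groups did not overlap for 3 of 10, each lower in WT, against 6.54% of all genes. In bulk RNA, fewer cells that express a gene and less RNA per cell cannot be told apart.

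JUN encodes c-JUN, the most potent activator of its family, and lies at chr1:58780788-58784327 (GRCh38, minus strand, 1 exon). It was at 152, 187 and 189 CPM in the vector libraries, 133, 146 and 139 in WT, and 157, 164 and 154 in NLS Mut. Every WT library was below every vector and every NLS Mut library. Against vector, WT was lower by a log2 fold change of -0.34 (SE 0.0713, adjusted p = 0.0202, edgeR).

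EGR1 lies at chr5:138465490-138469315 (plus strand, 2 exons). It was at 129.8, 114 and 139 CPM in vector, 102, 105 and 99.8 in WT, and 118, 94.95 and 104 in NLS Mut. The WT libraries lay close together and below all vector libraries, while 1 NLS Mut library reached the vector range. The log2 fold change in WT against vector was -0.32 (SE 0.0769, adjusted p = 0.0488, edgeR).

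JUND and JUNB, the family members that are also present in resting cells or act as weaker activators, showed the same sign without passing the test. JUND was at 179.7, 236 and 245 CPM in vector, 171, 213 and 161 in WT, and 196, 191 and 196 in NLS Mut. JUNB was at 181, 221 and 240.4 CPM in vector, 178, 203 and 171 in WT, and 183, 189 and 176 in NLS Mut. In both genes vector replicate 1 was far below the other vector libraries and inside the range of WT. Their log2 fold changes in WT against vector were -0.28 (SE 0.0891, adjusted p = 0.174, edgeR) and -0.22 (SE 0.0775, adjusted p = 0.236). With the summed strand counts JUNB was at -0.14 (SE 0.0708, adjusted p = 0.449, edgeR).

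FOSL1, which encodes FRA-1 and is known for its part in invasive carcinoma cells, was at 86.7, 111 and 108 CPM in vector, 74.8, 92.9 and 88.9 in WT, and 107, 106 and 101 in NLS Mut. The WT libraries overlapped vector only through vector replicate 1. The log2 fold change in WT against vector was -0.25 (SE 0.0843, adjusted p = 0.188, edgeR). FOSL2, which encodes FRA-2, varied least, between 291 and 319 CPM over all 9 libraries, with a log2 fold change of -0.06 (SE 0.0531, adjusted p = 0.739).

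FOS ranged from 6.65 to 11.1 CPM over the 9 libraries, IER2 from 52.3 to 71.3 and IER3 from 16.7 to 25.7, and in each the 3 groups overlapped. Their log2 fold changes in WT against vector were -0.10, -0.14 and -0.02. With the summed strand counts IER2 was at -0.19 (SE 0.0654, adjusted p = 0.219, edgeR). FOSB was at 0.878 to 0.925 CPM in vector, 0.588 to 0.693 in WT and 0.315 to 0.964 in NLS Mut. Its WT and vector libraries did not overlap, but the log2 fold change of -0.50 had an SE of 0.599 (adjusted p = 0.821, edgeR).

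**Figure D2:**
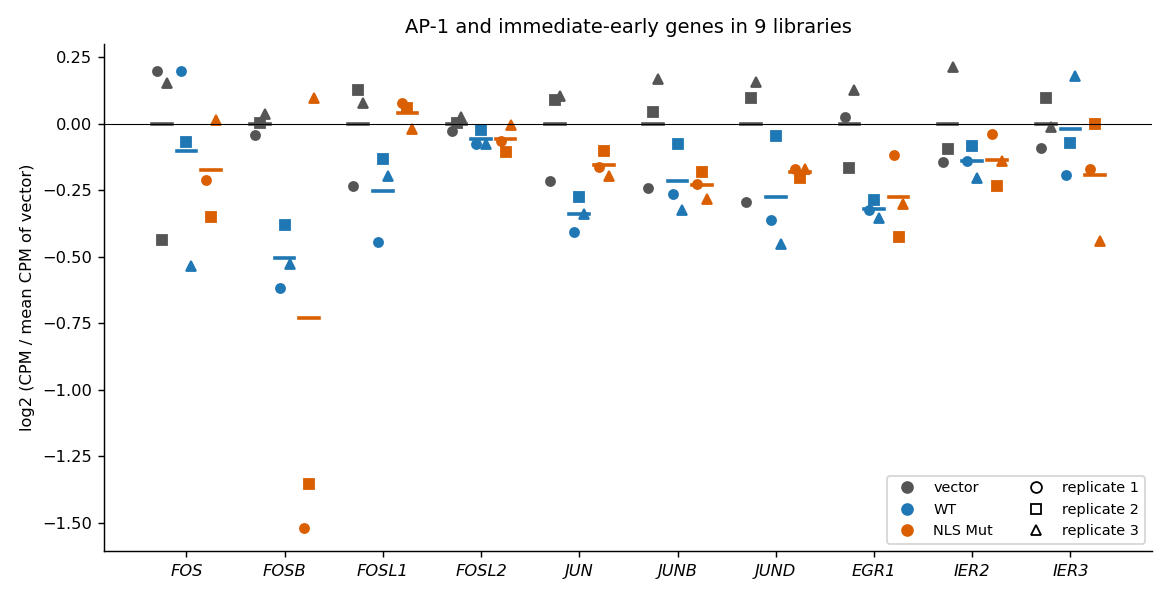
CPM of each gene in each library as log2 of the ratio to the vector mean (y axis), with vector in grey, WT in blue and NLS Mut in orange; symbols mark the replicate number and bars the group means. JUN and EGR1 in WT lie below all vector libraries, and vector replicate 1 (grey circles) is below the other vector libraries in FOSL1, JUN, JUNB and JUND.

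NLS Mut was then compared with the same vector libraries. No gene of the set passed the adjusted threshold in edgeR (0 of 10, against 0.793% of all genes), and DESeq2 called 1, EGR1 (adjusted p = 0.0319). Over all 18653 genes DESeq2 called 430 in this comparison. At an unadjusted p under 0.05 there were 3 of 10 (JUN, JUNB and EGR1), against 12.2% of all genes. The groups did not overlap for 0 of 10 genes, against 8.82% of all genes for lower values. The median log2 fold change was -0.18, and 9 of 10 values were below 0. EGR1 stood at -0.28 (SE 0.0771, adjusted p = 0.091, edgeR), JUNB at -0.23 (SE 0.0777, adjusted p = 0.181), JUND at -0.18 (SE 0.0892, adjusted p = 0.411) and JUN at -0.15 (SE 0.0713, adjusted p = 0.375). FOSL1, at 0.04 (SE 0.0841, adjusted p = 0.91), was the only value above 0. The 2 comparisons with vector use the same 3 control libraries and cannot be taken as separate evidence.

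The direct comparison of WT with NLS Mut asks whether the nuclear localization signal matters for a gene. HSPA5 was also higher in WT, by a log2 fold change of 0.19 (SE 0.0513, adjusted p = 0.0795, edgeR), with overlapping libraries. The amount of GRP78 mRNA and the state of the signal cannot be told apart here. By edgeR 0 of 10 passed (0.504% of all genes did), and DESeq2 also called 0 (316 of all 18653 genes). At an unadjusted p under 0.05 there were 2 of 10 (FOSL1 and JUN), against 11.6% of all genes. The same genes were the 2 of 10 whose WT libraries all lay below the NLS Mut libraries, against 9.41% of all genes, and 0 of 10 lay above, against 8.25%. FOSL1 was lower in WT with a log2 fold change of -0.29 (SE 0.0847, adjusted p = 0.116, edgeR) and JUN with -0.19 (SE 0.0717, adjusted p = 0.278). For JUN the 95% interval of the difference ran from -0.33 to -0.04. EGR1 differed by -0.04, with an interval from -0.20 to 0.11, and FOSL2 by -0.00, with an interval from -0.10 to 0.10. The other values were -0.09 for JUND, 0.01 for JUNB, 0.08 for FOS, 0.25 for FOSB, -0.00 for IER2 and 0.17 for IER3.

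**Figure D3:**
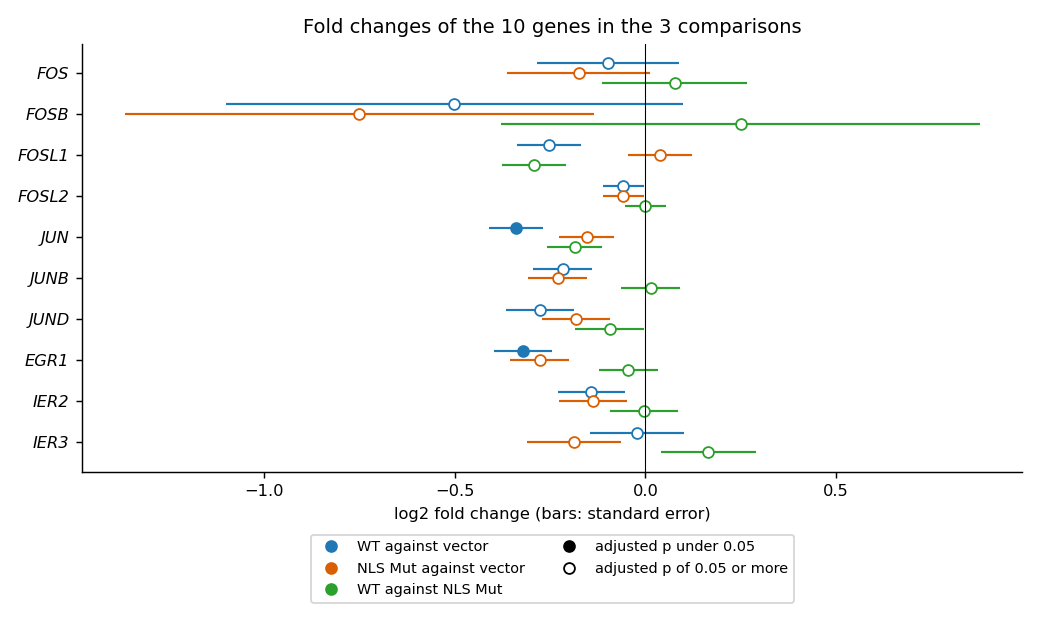
Log2 fold changes (x axis) of the 10 genes in the 3 comparisons, with bars for the standard error and filled symbols for an adjusted p under 0.05. Only JUN and EGR1 in WT against vector are filled, and FOSL1 and JUN have the lowest values in WT against NLS Mut (-0.29 and -0.19).

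The vector libraries differed among themselves in a way that touches these genes. The genes are rich in G and C, from 52.6% in FOS to 69.7% in JUND, where the median of tested genes was 48.6%. Counts rose with GC content relative to the mean library by 0.10 and 0.11 (log2 per 10 percentage points of GC) in vector replicates 2 and 3, and fell by 0.04 in vector replicate 1. The slopes of the other libraries ran from -0.08 to 0.03. Vector replicate 3 was the highest of the 9 libraries in 6 of 10 genes, and no vector library was the lowest in any.

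With a correction for GC content and length, JUN still passed in WT against vector (log2 fold change -0.24, SE 0.0549, adjusted p = 0.0173, edgeR), while EGR1 no longer did (-0.23, SE 0.0682, adjusted p = 0.0951). JUNB, JUND and IER2 moved to values next to 0 (0.00053, 0.02 and 0.01), IER3 to 0.12, and the median of the 10 genes to -0.03. In WT against NLS Mut, where slopes were closer, FOSL1 kept its value (-0.29) with a smaller SE of 0.0642 and passed (adjusted p = 0.0112). The corrected fit called 2.27% of all genes in this comparison, against 0.504% without the correction. In WT against vector it called 1.07%, against 0.558%.

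Leaving out vector replicate 1 worked the other way. FOSL1, JUN, JUNB, JUND and EGR1 were then lower in WT cells, compared with vector, at an adjusted p under 0.05 (5 of 10, against 6.33% of all genes), with JUN at -0.44 (adjusted p = 4.4e-06, edgeR) and JUND at -0.40 (adjusted p = 0.000244). JUN, JUNB, JUND and EGR1 were lower in NLS Mut (4 of 10, against 5.05% of all genes). FOSL1 passed in WT against NLS Mut (adjusted p = 0.0119), where 1.95% of all genes were called. Without vector replicate 3 the count in WT against vector was 0. The calls of JUN and EGR1 also ended without WT replicate 1 (adjusted p = 0.202 and 0.213) or replicate 3 (0.126 and 0.243). That of JUN ended without vector replicate 2 (0.202), and that of EGR1 without any of the 3 NLS Mut libraries (0.0592 to 0.0863); those fits also tested more genes (19347 to 19888).

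**Figure D4:**
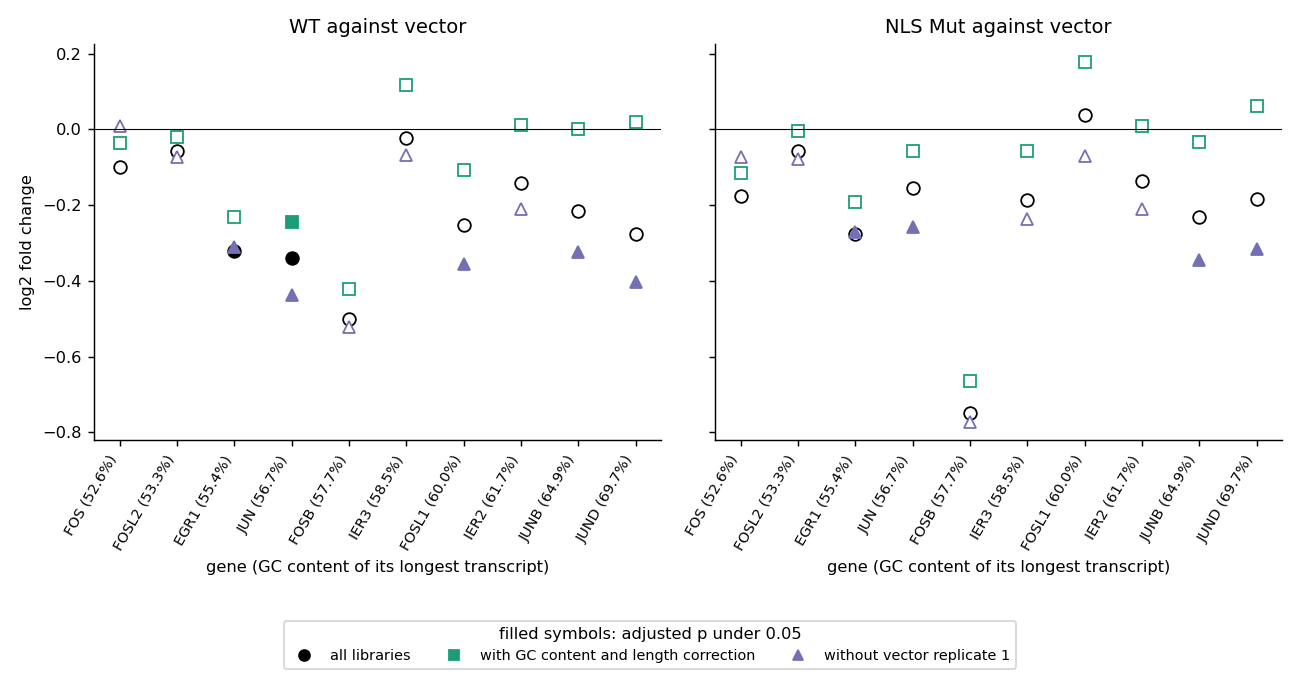
Log2 fold changes (y axis) against vector in WT (left) and NLS Mut (right), with genes ordered by GC content; circles use all libraries, squares the GC content and length correction, triangles leave out vector replicate 1, and filled symbols have an adjusted p under 0.05. JUND in WT runs from -0.40 without vector replicate 1 to 0.02 with the correction, while JUN stays at -0.24 or lower.

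A list of 31 other immediate-early genes had mostly negative values against vector. This list and those below were chosen with earlier results of these data known, so their counts are a description. Of 30 tested (ARC was too low), 6 fell and 0 rose in WT against vector. Of all genes 0.558% were called in either direction and 0.343% as lower. In the list 26 values were below 0, and the median was -0.25 against -0.00 over all genes. With the GC content and length correction 5 fell (1.07% of all genes were called) and the median was -0.14. Without vector replicate 1 the count was 12 (6.33% of all genes were called) and without vector replicate 3 it was 3 (0.108%). Without vector replicate 2 it was also 3, where 21 of all 19300 genes were called.

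ATF3, a stress-induced repressor of the ATF family that can pair with JUN, was at 38.9, 43.1 and 42.2 CPM in vector, 22.2, 24.3 and 23.2 in WT and 34.1, 38.0 and 37.4 in NLS Mut. WT stood apart from both other groups, with a log2 fold change of -0.83 against vector (adjusted p = 7.87e-06, edgeR) and -0.65 against NLS Mut (adjusted p = 0.000348). MYC, the growth regulator, fell by 0.49 against vector (adjusted p = 0.000242) and by 0.53 against NLS Mut (adjusted p = 9.49e-05) on the log2 scale. PPP1R15A, which encodes the stress-induced phosphatase subunit GADD34, fell by 0.55 against vector (adjusted p = 0.00103). The calls of ATF3, MYC and PPP1R15A held in all 8 alternatives with every library and in all 9 fits that left out 1 library.

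DUSP1, a phosphatase that switches off MAP kinases, fell by 0.46 in WT against vector (adjusted p = 0.00915, edgeR), a call that held in 6 of the 9 fits without 1 library and ended without vector replicate 2 (adjusted p = 0.0503), vector replicate 3 (0.0668) or WT replicate 1 (0.0541). KLF4, a zinc finger factor, had log2 fold changes of -0.28 in WT (adjusted p = 0.0406) and -0.44 in NLS Mut against vector (adjusted p = 0.000364). The first of these calls ended with the GC content and length correction (adjusted p = 0.0588) and with only the 2 groups (0.152), and held in 2 of the 9 fits without 1 library. The second held in all 9. The sixth gene that fell in WT, CCN1, a matrix protein, was at -0.33 (adjusted p = 0.0075) and is named here after its values were seen. In NLS Mut against vector 2 of 30 fell and 0 rose, against 0.793% of all genes called, with a median of -0.14. The other gene was NR4A1, a nuclear receptor, at 8.73, 9.59 and 7.96 CPM in vector and 5.30, 3.06 and 4.82 in NLS Mut, with a log2 fold change of -1.01 (SE 0.197, adjusted p = 0.00839), a call that ended without vector replicate 2 (adjusted p = 0.0713) or NLS Mut replicate 2 (0.13). In WT against NLS Mut 2 of 30 fell (ATF3 and MYC) and 0 rose, against 0.504% of all genes called, with a median of -0.08.

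**Figure D5:**
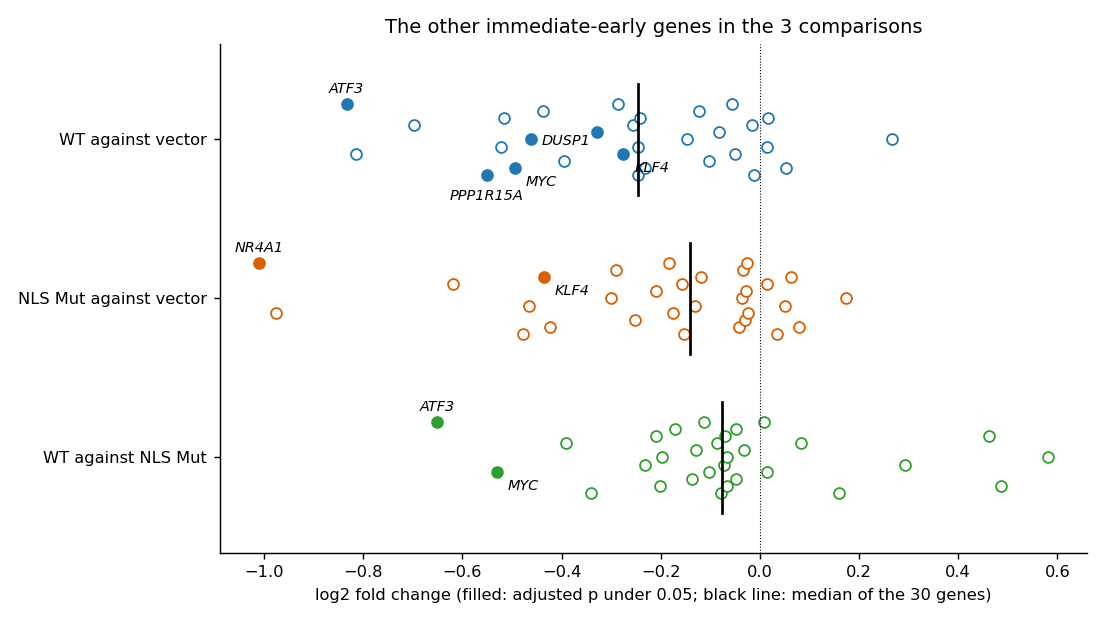
Log2 fold changes (x axis) of the 30 tested genes of the other immediate-early list, 1 row per comparison, spread vertically for legibility; filled points have an adjusted p under 0.05 and black lines are medians. All filled points lie below 0, and the medians are -0.25, -0.14 and -0.08 from top to bottom.

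Genes that act before and after AP-1 were counted in the same way. Over all genes edgeR called 0.558%, 0.793% and 0.504% in WT against vector, NLS Mut against vector and WT against NLS Mut. DESeq2 called 262, 430 and 316 of all 18653 genes in the same order. None of 19 upstream kinases and factors (such as SRF, ELK1, CREB1 and the ERK, JNK and p38 kinases) passed in edgeR in any comparison (DESeq2 called 1, 1 and 0 in WT against vector, NLS Mut against vector and WT against NLS Mut), with medians of 0.05 in both comparisons against vector and -0.02 between the GRP78 forms. At an unadjusted p under 0.05 edgeR gave 5, 3 and 3 of 19 in the same order, against 11.7%, 12.2% and 11.6% of all genes. Of 15 genes of ERK output and feedback 1 fell, DUSP5, a nuclear ERK phosphatase, in NLS Mut against vector (log2 fold change -0.32, adjusted p = 0.0422, edgeR). DESeq2 called 0 of the 15 in WT against vector and 1, lower, in each of the other comparisons. At an unadjusted p under 0.05 edgeR gave 1 higher and 3 lower in WT against vector. It gave 1 lower in each of the other comparisons. Of the EGR1 corepressors NAB1 and NAB2, 0 passed in edgeR or DESeq2 in any comparison and 0 had an unadjusted p under 0.05. Of 11 tested bZIP partners of AP-1, MAFK, a small MAF protein, fell by 0.49 in WT (adjusted p = 0.00631) and by 0.40 in NLS Mut (adjusted p = 0.0235) against vector. With the correction, DUSP5 and the second MAFK call no longer passed (adjusted p = 0.115 and 0.0732). The MAFK calls held in 6 and 4 of the 9 fits without 1 library, and that of DUSP5 in 3.

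Of 27 tested genes on a list of AP-1 targets (MMP10 was too low), 2 fell in WT against vector and 0 rose, against 0.558% of all genes called. They were the cytokine genes IL11 (log2 fold change -0.39, adjusted p = 0.0473, edgeR) and LIF (-0.31, adjusted p = 0.0488), and both calls ended with the GC content and length correction (adjusted p = 0.0827 and 0.073) and held in 2 of the 9 fits without 1 library. In WT against NLS Mut HMGA1, a chromatin protein, fell by 0.32 (adjusted p = 0.0483) and PLAU, the protease urokinase, rose by 0.27 (adjusted p = 0.03), calls that each held in 3 of the 9 fits without 1 library. In NLS Mut against vector 0 of 27 passed in edgeR. Over all genes edgeR called 0.504% in WT against NLS Mut and 0.793% in NLS Mut against vector. DESeq2 called 4, 6 and 1 of the 27 in WT against vector, WT against NLS Mut and NLS Mut against vector. Over all 18653 genes DESeq2 called 262, 316 and 430 in the same order. At an unadjusted p under 0.05 edgeR gave 11, 9 and 8 in the same order, against 11.7%, 11.6% and 12.2% of all genes. The medians of the list were -0.06, 0.00 and -0.07 in WT against vector, WT against NLS Mut and NLS Mut against vector.

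The genes whose log2 CPM followed JUN most closely over the 9 libraries, among 15044 genes, were TMEM200B (Pearson's r = 0.980), SQSTM1 (0.979), which encodes the autophagy receptor p62, and UBE2M (0.974), a NEDD8-conjugating enzyme. For EGR1 they were ANKRD33 (0.966), FBXL19-AS1 (0.931) and TNFRSF10B (0.924), which encodes the death receptor DR5. The libraries share the GC differences given above, and the r values are a description.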

How the data were processed

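RNA-Seq counts per gene were deposited by the authors for 9 libraries, unnormalized, in the layout of STAR. The submitters' processing notes name STAR 2.7.9a, DESeq2 1.36.0 and GRCh38.p14; the annotation release is not given in the sources used here. The unstranded column was used. Lines that name no gene held 27.6% to 30.7% of reads and were left out. Coordinates, exonic length and GC content came from GENCODE release 29, which held 58342 of 61544 genes.

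All 9 libraries were fitted together in edgeR 4.0.16 (R 4.3.3, quasi-likelihood, TMM factors 0.989 to 1.02, filterByExpr), with a log2 fold change and SE per gene and Benjamini-Hochberg adjustment over 18653 genes. The median biological coefficient of variation was 11.2%. Intervals of differences are normal 95% intervals. DESeq2 1.42.0 was an alternative, with other scalings, filters, counts, a GC content and length correction (loess span 0.3, 97.5% of genes), and each library left out. In each list the genes named were those called, at most 6 per list over the 3 comparisons by size of change (CCN1 besides), and for JUN and EGR1 the 3 closest genes. The main text of the study states no RNA-Seq test. The members and lists were chosen with earlier results of these data known.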

Additional observations from a re-analysis of the deposited data

How the results depend on the processing

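Of the 10 genes, the count called in WT against vector (2) was 1 with DESeq2 size factors or strand sums, 0 with only the 2 groups, 1 with the GC content and length correction, 0 at an adjusted p under 0.01, and 0 to 5 when 1 library was left out. It was 3 without a filter. In NLS Mut against vector (0) it was 1 with DESeq2, 2 without a filter, and 0 to 4 when 1 library was left out. In WT against NLS Mut (0) it was 1 without a filter, with only the 2 groups or with the correction, and 0 to 1 when 1 library was left out. With the replicate number as a block, 1 gene (FOSL1) was called in WT against NLS Mut. There were 2 in WT against vector and 1 (EGR1) in NLS Mut against vector. After centring by group, same-numbered libraries correlated at -0.02 to 0.06 and other pairs at -0.05 to 0.02. With 3 libraries a group, these values cannot decide whether the numbers pair the libraries.

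Over all genes, 94 were called in WT against NLS Mut (56 higher, 38 lower), and 316 with DESeq2, 225 without a filter, 315 with only the 2 groups, 212 with the block, 424 with the correction (195 higher, 229 lower), 34 at 0.01, and 27 to 388 without 1 library. In WT against vector there were 104 (40 higher, 64 lower), and 262, 289, 26, 232, 200 (136 higher, 64 lower) and 32 in that order, 19 to 1256 without 1 library, and 141 by library size alone (26 higher, 115 lower). In NLS Mut against vector there were 148 (55 higher, 93 lower), and 430 with DESeq2, 240 without a filter, 230 with the block, 286 with the correction (212 higher, 74 lower), 45 at 0.01, 33 to 1002 without 1 library, and 172 by library size alone (39 higher, 133 lower).

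Some signs turned. In WT against NLS Mut, FOSL2 was at 0.0063 with DESeq2, 0.0060 with its size factors or only the 2 groups, 0.0025 without a filter, 0.0080 with strand sums and 1.6e-05 with the block, and IER2 at 0.0013 with DESeq2, 0.0016 with its size factors or the 2 groups, 0.0089 with strand sums and 0.0015 with the correction. With the correction, JUNB, JUND, IER2 and IER3 turned to 0.00053, 0.019, 0.011 and 0.12 in WT against vector, and JUND and IER2 to 0.063 and 0.0095 in NLS Mut against vector. Leaving out 1 library gave, between WT and NLS Mut, -0.092 to 0.26 for FOS, -0.0096 to 0.92 for FOSB, -0.020 to 0.032 for FOSL2, -0.055 to 0.072 for JUNB, -0.11 to 0.050 for EGR1 and -0.048 to 0.054 for IER2. It gave -0.27 to 0.077 for FOS and -0.13 to 0.058 for IER3 in WT against vector, and -0.070 to 0.10 for FOSL1 in NLS Mut against vector. The cause was not tested. Low counts limit FOSB and FOS, whose SEs were 0.599 and 0.186 in WT against vector.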
